A study of Mus musculus with 6 samples.

Results

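The genes described here are those that the deposited expression table assigns to the KEGG pathway of fatty acid degradation. They number 52 of the 21959 rows of the table, and were taken by that annotation alone, whatever their level. RNA of mouse white adipose tissue was sequenced in 3 WT libraries (replicates 10, 11 and 12) and in 3 libraries of the genotype labelled ++Oxtr (replicates 7, 8 and 9). The series text names the gonadal depot and an interest in how the oxytocin receptor bears on fat development and energy use. The column names of the table begin with tg for the ++Oxtr libraries. Construct, promoter, copy number, strain, sex, age and diet were left unstated in the sources used here. The labels do not say that replicates are separate animals, so each p-value reflects only how these samples vary, and that variation could be technical.

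Fatty acid degradation begins in the cytosol and at organelle membranes, where acyl-CoA synthetases join a fatty acid to coenzyme A. Carnitine palmitoyltransferases then move long acyl groups to carnitine for entry into mitochondria, and back to coenzyme A inside. There a repeating cycle of dehydrogenation, hydration, a further dehydrogenation and thiolysis shortens the chain and releases acetyl-CoA. Peroxisomes run a related cycle that starts with an oxidase instead of a dehydrogenase and handles very long and dicarboxylic chains. Omega oxidation by cytochrome P450 enzymes, followed by alcohol and aldehyde dehydrogenases, is a side route best known from the liver. White fat mainly stores fatty acids, while brown and beige fat burn them.

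Total counts per library ran from 14314517 to 19186696, and a count of 0 allows up to 0.156 to 0.21 CPM (counts scaled to library size), which covers counting error only. Oxtr, the gene in the genotype's name, was at 22, 61.4 and 45.2 CPM in WT and at 90.7, 89.7 and 81.8 CPM in ++Oxtr. All 8 adipocyte markers passed the filter on low counts, and Adipoq, the gene of adiponectin, was at 2282 to 2822 CPM in every library. By log2 fold change 3 of the 8 were higher and 5 lower in ++Oxtr, and each overlapped between groups. Lep, the leptin gene, was uneven, at 217, 666 and 624 CPM in WT and at 358, 252 and 61.4 CPM in ++Oxtr replicates 7, 8 and 9. Cidec, a lipid droplet gene, was at 3530, 3756 and 2405 CPM in WT and at 2402, 2037 and 2604 CPM in ++Oxtr. In bulk tissue, fewer cells of a type and less RNA per cell cannot be told apart. Several marker sets moved with the groups or set single libraries apart, and their part in the results was not tested. The summed level of 8 brown and beige adipocyte markers was 152 to 189 CPM in WT and 265 to 332 CPM in ++Oxtr, with Zic1 at 0 in all libraries and Ucp1 at most 2.98 CPM. Slc36a2, an amino acid transporter, made up most of that sum, at 140 to 173 CPM in WT and 231 to 308 CPM in ++Oxtr (DESeq2 adjusted p 0.00015). Cox8b, a subunit of the respiratory chain, was at 5.37 to 9.16 CPM in WT and 11.7 to 27.3 CPM in ++Oxtr (DESeq2 adjusted p 0.042). The summed level of 8 macrophage markers was 1046 to 1340 CPM in WT and 818 to 921 CPM in ++Oxtr. All 8 had negative log2 fold changes, and 5 lay lower without overlap, against 7.61% of all genes tested. DESeq2 passed 2 of them, C1qa (adjusted p 0.0192) and Cd163 (adjusted p 0.00361), against 0.708% of all genes on the lower side. The summed level of 7 hepatocyte markers was 5200 to 6634 CPM in WT and 2687 to 4691 CPM in ++Oxtr, nearly all of it Cyp2e1 (5194 to 6626 and 2680 to 4683 CPM). Alb, the albumin gene, was at 4.06 to 5.62 CPM in WT and 5.01 to 7.23 CPM in ++Oxtr, and Apoa1, Apoa2, Ttr and Fga were at most 0.472 CPM. The 10 markers of multiciliated epithelium summed to 83.4 to 119 CPM in WT and 85.1 to 188 CPM in ++Oxtr, with ++Oxtr replicate 8 highest. Tppp3 was the largest part in every library, at 62.9 to 109 CPM in WT and 74.0 to 101 CPM in ++Oxtr. Its highest library was WT replicate 10, where Foxj1 was at 0. Foxj1 reached 29.2 CPM in ++Oxtr replicate 8, 6.55 and 5.90 CPM in ++Oxtr replicate 9 and WT replicate 12, and no more than 0.139 CPM elsewhere. The 10 skeletal muscle markers summed to 45.6 to 71.9 CPM in WT and 38.7 to 62.2 CPM in ++Oxtr, with Myh4 at 0 throughout and Ckm at 0 in all but ++Oxtr replicate 8, which had 1 read. Most of that sum was Myl1, at 34.6 to 50.5 CPM over all libraries, and Acta1, at 7.14 to 20.4 CPM in WT and 1.21 to 7.76 CPM in ++Oxtr.

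All members together summed to 1720 ± 59.8 FPKM in WT and 2006 ± 152 FPKM in ++Oxtr (SD, n = 3), FPKM being the deposited level per gene length and library total. Levels differed between members by several orders of magnitude. Aldh2, the mitochondrial aldehyde dehydrogenase, and Acsl1, an acyl-CoA synthetase, had the highest means over the 6 libraries, 210 and 212 FPKM. Acadl and Acadm, the long-chain and medium-chain acyl-CoA dehydrogenases, were at 159 and 134 FPKM. By step, the mitochondrial spiral held the most RNA, 849 ± 30.7 FPKM in WT over 13 genes. The 9 alcohol and aldehyde dehydrogenases held 312 ± 18.5, the 7 peroxisomal genes 240 ± 9.57, the 8 acyl-CoA synthetases 193 ± 8.85 and the 4 carnitine palmitoyltransferases 78.3 ± 9.96 FPKM (SD, n = 3). The 9 omega hydroxylases together reached only 1.11 ± 0.396 FPKM. Of the 52 members, 48 had at least 1 read and 39 passed the filter on low counts.

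**Figure D1:**
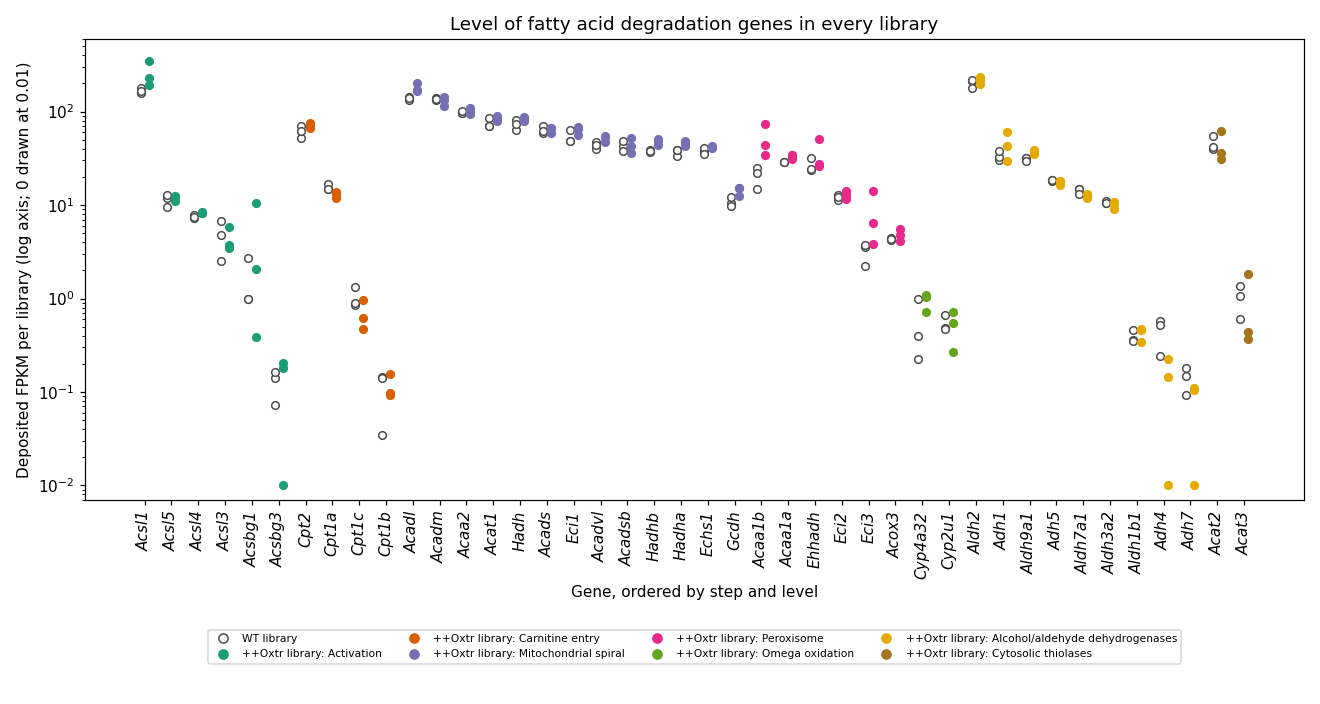
Deposited FPKM (log axis) of 42 members with a mean of at least 0.05 FPKM, in each WT library (open points) and each ++Oxtr library (points coloured by step). Acsl1, Aldh2, Acadl and Acadm lie above 100 FPKM in every library, while the omega hydroxylases Cyp4a32 and Cyp2u1 lie near or under 1 FPKM.

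The comparison of ++Oxtr with WT asks whether the route by which fat is burned differs between these tissues. Across the 39 tested members, 29 had a positive log2 fold change (++Oxtr over WT), with between 28 and 35 on that side under the other settings. That is 74.4% of them, against 50.8% of all 13566 genes tested. The median was 0.18 over the members and 0.004 over all genes. By edgeR's quasi-likelihood test 0 of 39 members passed an adjusted p of 0.05, and 0% of all genes did in either direction. At an unadjusted edgeR p under 0.05 there were 10 members at higher values (25.6%), against 4.44% of all genes, and 0 at lower values, against 4.47%. In 13 members all ++Oxtr libraries lay above all WT libraries (33.3%, against 7.44% of all genes tested). In 1 member, Cpt1a, they all lay below (2.56%, against 7.61%). DESeq2 on the same genes passed 4 members at higher values at an adjusted p of 0.05 (10.3%, against 0.693% of all genes) and 0 at lower values (against 0.708%). Those members were Hadha, Hadhb, Acadl and Acaa1b. Acaa1b alone kept its DESeq2 call without each of the 6 libraries in turn. The exact permutation p over the 20 assignments of libraries is 0.1 for every member whose groups do not overlap, the smallest that this design allows.

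**Figure D2:**
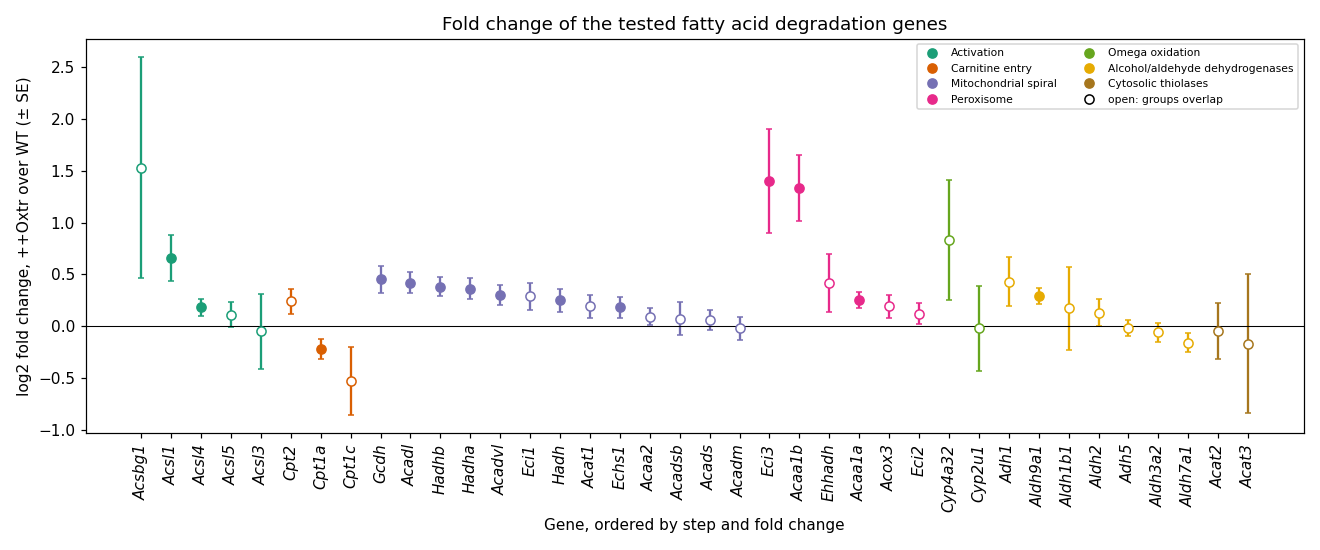
Log2 fold change (++Oxtr over WT, from the edgeR fit) with its standard error for 38 of the 39 tested members, ordered by step. Filled points are members whose groups do not overlap: 13 on the higher side and Cpt1a on the lower side.

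Acsl1 was the most abundant RNA of the activation step. It made up 86.9 ± 1.92% of the summed FPKM of the pathway's acyl-CoA synthetases in WT and 89.2 ± 4.35% in ++Oxtr (SD, n = 3). Acsl1 (ENSMUSG00000018796, GRCm38 chromosome 8, 46471037 to 46536051, plus strand) was at 1674, 1846 and 1679 CPM in WT and at 2451, 2056 and 3705 CPM in ++Oxtr. The groups did not overlap, and ++Oxtr replicate 9 stood far above its group. The fitted difference was 0.66 on the log2 scale (SE 0.22), 1.58-fold. The adjusted p was 0.459 in edgeR and 0.0877 in DESeq2. The DESeq2 adjusted p was 0.00581 without ++Oxtr replicate 8 and above 0.05 without any other library. It was 0.314, 0.228 and 0.397 without WT replicates 10, 11 and 12, and 0.107 and 0.0875 without ++Oxtr replicates 7 and 9. Without ++Oxtr replicate 9 the log2 difference was 0.38.

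Acsl4, a synthetase that prefers arachidonic acid, was at 41.7, 39.0 and 38.7 CPM in WT and at 45.1, 45.7 and 44.9 CPM in ++Oxtr, a small gap with little spread (log2 fold change 0.18, SE 0.08, edgeR adjusted p 0.561). Acsl5, found on mitochondria and the endoplasmic reticulum, overlapped between groups at 58.0, 46.5 and 59.4 CPM in WT against 60.6, 54.5 and 62.2 CPM in ++Oxtr. Acsl3, a synthetase of the endoplasmic reticulum and lipid droplets, overlapped too, with WT values of 10.9, 20.8 and 28.2 CPM and ++Oxtr values of 16.7, 25.6 and 15.3 CPM. Its span overlaps Utp14b on the same strand, with 3.59% of its 50-base windows shared. Its log2 fold change of -0.05 changed sign when WT replicate 12, ++Oxtr replicate 7 or ++Oxtr replicate 9 was left out. Acsbg1, a synthetase of the bubblegum family known from brain, gonad and adrenal gland, had the largest fitted value of all members at 1.53 (SE 1.07), and it rested on 1 library. The WT values were 3.54, 3.54 and 9.31 CPM, and ++Oxtr replicates 7, 8 and 9 gave 1.43, 38.4 and 7.63 CPM. Its log2 fold change was -0.29 without ++Oxtr replicate 8 and -0.14 by limma-voom with quality weights. Its 3 highest libraries were the 3 in which Foxj1 was highest, and the part of ciliated cells in its level was not tested. The other members of the step, Acsl6, Acsbg2 and Acsbg3, had at most 10 reads in a library.

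The 3 tested genes of carnitine entry lay on either side of no difference, 1 higher and 2 lower. Cpt1a, the outer-membrane transferase that malonyl-CoA inhibits (ENSMUSG00000024900, GRCm38 chromosome 19, 3322334 to 3385733, plus strand), was at 113, 126 and 110 CPM in WT and at 107, 102 and 91.8 CPM in ++Oxtr. All ++Oxtr libraries lay below all WT libraries, by a log2 fold change of -0.22 (SE 0.10, adjusted p 0.566 by edgeR and 0.590 by DESeq2). Cpt2, the inner-membrane transferase that hands the acyl group back to coenzyme A, was at 126, 167 and 143 CPM in WT and at 171, 181 and 161 CPM in ++Oxtr. Its groups overlapped, with a log2 fold change of 0.24 (SE 0.12, edgeR adjusted p 0.612). Cpt1c, an isoform of neurons with little known transferase activity, was at 4.78, 4.99 and 7.14 CPM in WT and at 2.71, 3.49 and 5.53 CPM in ++Oxtr, with overlap (log2 fold change -0.53, SE 0.33).

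Within each library, the FPKM of Cpt2 was 3.56, 4.23 and 4.16 times that of Cpt1a in WT and 5.11, 5.68 and 5.61 times in ++Oxtr. The FPKM of Hadha was 2.26, 2.31 and 2.59 times that of Cpt1a across the WT libraries, and 3.16, 3.64 and 3.89 times across the ++Oxtr libraries. Neither ratio overlapped between the groups, and neither was tested, since the genes were chosen after their values were seen. For Hadha over Cpt1a the separation follows from the single genes. All ++Oxtr libraries were above all WT libraries for Hadha and below them for Cpt1a, so the ratio adds no separate evidence.

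Cpt1b, the muscle-type isoform that is also a brown fat gene, was counted 2, 7 and 7 times in the WT libraries and 6, 8 and 5 times in the ++Oxtr libraries, and was not tested. In GENCODE M21 the span of Cpt1b (GRCm38 chromosome 15, 89416405 to 89425863, minus strand) lies inside that of Gm44502 on the same strand, and 78.6% of the 50-base windows of Cpt1b transcripts also occur in Gm44502. The table lists Gm44502 with 0 reads in all 6 libraries. The sources used here do not say how reads in both genes were assigned, so the share of Cpt1a in the Cpt1 genes, 93.2 ± 1.84% of FPKM in WT and 94.1 ± 2.19% in ++Oxtr, covers only the reads that were counted.

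The mitochondrial spiral held 7 of the 13 members that lay higher in ++Oxtr without overlap. All 13 of its genes were tested, and 12 had a positive log2 fold change (92.3%, against 50.8% of all genes). The median was 0.25 and the range -0.02 to 0.45. Acadsb and Acadm changed sign under some settings. Of the 13, 7 lay higher without overlap (53.8%, against 7.44% of all genes tested), and 5 were at higher values at an unadjusted edgeR p under 0.05 (38.5%, against 4.44%). The summed level of the step was 818, 879 and 850 FPKM in WT and 935, 959 and 962 FPKM in ++Oxtr, without overlap.

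Hadha and Hadhb encode the alpha and beta subunits of the mitochondrial trifunctional protein, which carries out the last 3 reactions of the cycle on long chains. Hadha (GRCm38 chromosome 5, 30118304 to 30155162, minus strand) was at 292, 333 and 325 CPM in WT and at 386, 424 and 407 CPM in ++Oxtr. Hadhb (30155248 to 30184593, plus strand) was at 256, 244 and 239 CPM in WT and at 322, 341 and 298 CPM in ++Oxtr. Every ++Oxtr library was above every WT library for each subunit. The log2 fold changes were 0.36 (SE 0.10) for Hadha and 0.38 (SE 0.09) for Hadhb, with edgeR adjusted p of 0.379 and 0.348 and DESeq2 adjusted p of 0.0325 and 0.00972. The DESeq2 adjusted p rose to 0.242 for Hadha and 0.119 for Hadhb without ++Oxtr replicate 8, and to 0.136 and 0.123 without WT replicate 12. It was also above 0.05 for Hadha without WT replicate 10 and ++Oxtr replicates 7 and 9 (0.0993, 0.0565 and 0.0904), and for Hadhb without WT replicate 11 and ++Oxtr replicate 7 (0.0739 and 0.0817). Within each library the subunits kept a ratio in FPKM, Hadha to Hadhb, of 0.974 ± 0.0968 in WT and 0.958 ± 0.0659 in ++Oxtr (SD, n = 3).

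The 2 trifunctional protein genes lie head to head, and GENCODE M21 leaves 85 bases between them, the stretch from which both are read in opposite directions. It is shown because these genes had nearly equal log2 fold changes. The plus strand at chr5:30155163-30155247 (GRCm38.p6) reads as follows, with the GC box GGGCGG in capitals. Sequences and promoter windows come from RefSeq.
Hadha and Hadhb: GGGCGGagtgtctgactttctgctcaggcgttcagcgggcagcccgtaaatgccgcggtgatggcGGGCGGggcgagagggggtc
The stretch is 69.4% G and C and holds 2 GC boxes. That motif, on either strand, was found in the 300-base windows around the start sites of 25 of 38 members with a RefSeq promoter (65.8%) and of 38.2% of all genes. It was chosen after the sequence was seen.

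Acadl, long-chain acyl-CoA dehydrogenase (GRCm38 chromosome 1, 66830839 to 66863277, minus strand), was at 284, 268 and 270 CPM in WT and at 345, 341 and 411 CPM in ++Oxtr. The libraries separated cleanly, by a log2 fold change of 0.42 (SE 0.10, adjusted p 0.367 by edgeR and 0.0225 by DESeq2). The DESeq2 adjusted p was 0.0647, 0.172 and 0.187 without WT replicates 10, 11 and 12. Acadvl, the very-long-chain dehydrogenase of the inner membrane, was at 105, 125 and 115 CPM in WT and at 130, 150 and 146 CPM in ++Oxtr (log2 fold change 0.30, SE 0.10, edgeR adjusted p 0.459).

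Among the other acyl-CoA dehydrogenases, Acadm, Acads and Acadsb overlapped between groups. Acadm, for medium chains, was at 523, 542 and 513 CPM in WT and at 535, 563 and 460 CPM in ++Oxtr, with a log2 fold change of -0.02 (SE 0.11) that turned positive with upper quartile factors, with limma-voom and without WT replicate 11 or ++Oxtr replicate 9. Acads, for short chains, had a log2 fold change of 0.06 (SE 0.10), and Acadsb, for short branched chains, one of 0.07 (SE 0.16).

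Gcdh, glutaryl-CoA dehydrogenase of lysine and tryptophan breakdown, was at 29.1, 33.7 and 25.6 CPM in WT and at 35.2, 43.0 and 42.5 CPM in ++Oxtr (log2 fold change 0.45, SE 0.13, edgeR adjusted p 0.418). Hadh, the short-chain 3-hydroxyacyl-CoA dehydrogenase, and Echs1, the short-chain enoyl-CoA hydratase, also did not overlap between groups. Their log2 fold changes were 0.25 (SE 0.11) and 0.18 (SE 0.10). Eci1, the mitochondrial enoyl-CoA isomerase for unsaturated chains, stood at 0.29 (SE 0.13), and the thiolases Acat1 and Acaa2 at 0.19 (SE 0.11) and 0.09 (SE 0.08), with overlapping groups in each. The spans of Gcdh, Acadvl, Acadsb, Echs1 and Hadha overlap a protein-coding gene on the opposite strand, as do those of Acaa1a, Acaa1b and Eci3 among the peroxisomal genes. The sources used here do not say whether counting used strand.

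**Figure D3:**
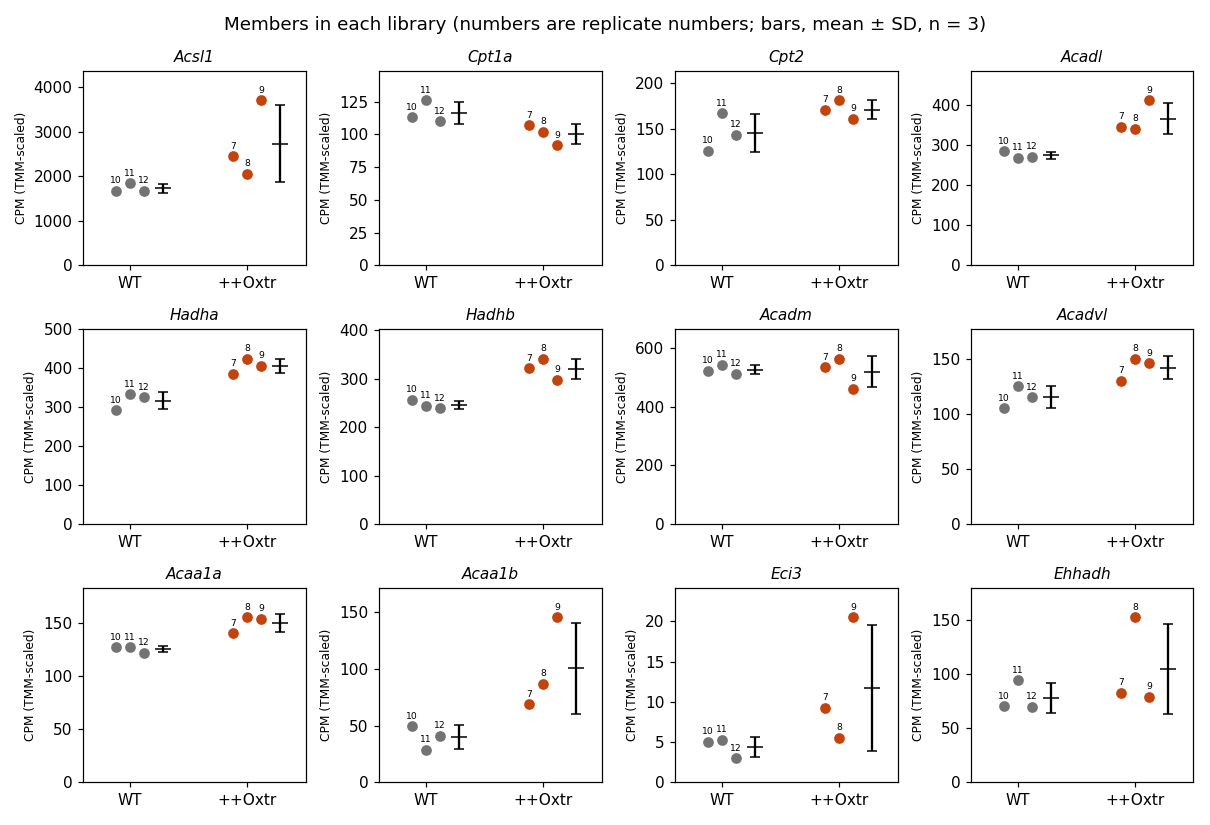
TMM-scaled CPM of 12 members in each library, with the replicate number above each point and the mean ± SD (n = 3) beside each group. Acsl1, Acadl, Hadha, Hadhb, Acadvl, Acaa1a, Acaa1b and Eci3 separate the groups upward and Cpt1a separates them downward. The highest point of Acsl1, Acaa1b and Eci3 is ++Oxtr replicate 9.

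Peroxisomal genes held the largest log2 fold changes among members whose groups did not overlap. All 7 were tested and all 7 had positive log2 fold changes in every setting run, against 50.8% of all genes in the main fit. The median was 0.25 and the range 0.12 to 1.40. In 3 (Acaa1a, Acaa1b and Eci3) all ++Oxtr libraries lay above all WT libraries (42.9%, against 7.44% of all genes tested). The step summed to 250, 239 and 231 FPKM in WT and to 258, 303 and 344 FPKM in ++Oxtr.

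Acaa1b, a peroxisomal 3-ketoacyl-CoA thiolase (ENSMUSG00000010651, GRCm38 chromosome 9, 119148023 to 119157093, minus strand), was at 49.3, 28.8 and 41.2 CPM in WT and at 68.7, 86.8 and 145 CPM in ++Oxtr. The groups were apart although each varied widely, with ++Oxtr replicate 9 highest and WT replicate 11 lowest. The log2 fold change was 1.33 (SE 0.32), 2.52-fold. The adjusted p was 0.370 in edgeR and 0.00152 in DESeq2. Its DESeq2 adjusted p ran from 9.44e-05 to 0.0439 as each library was left out, and its log2 fold change in those DESeq2 fits from 0.97 to 1.55.

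Acaa1a, its near copy on the same chromosome, was at 127, 127 and 122 CPM in WT and at 140, 155 and 154 CPM in ++Oxtr (log2 fold change 0.25, SE 0.08, edgeR adjusted p 0.451). Of the 50-base windows of Acaa1b transcripts, 30.5% also occur in Acaa1a transcripts, so part of their reads could be split between them. Added together, the 2 genes were at 177, 155 and 163 CPM in WT and 208, 241 and 299 CPM in ++Oxtr, also without overlap. The share of Acaa1b in their summed FPKM was 41.2 ± 6.58% in WT and 58.8 ± 8.13% in ++Oxtr (SD, n = 3).

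Eci3, a peroxisomal enoyl-CoA isomerase, was at 5.07, 5.27 and 3.01 CPM in WT and at 9.24, 5.53 and 20.5 CPM in ++Oxtr. The lowest ++Oxtr library was just above the highest WT library, and the log2 fold change of 1.40 (SE 0.50, edgeR adjusted p 0.492) was 0.73 to 1.73 as each library was left out. Eci2, its neighbour on chromosome 13, which serves mitochondria and peroxisomes, was at 62.1 to 71.3 CPM in WT and 64.8 to 79.6 CPM in ++Oxtr. Their transcripts share few 50-base windows, 8.7% of those of Eci3.

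Acox3, the oxidase of branched chains, had a log2 fold change of 0.19 (SE 0.11). Ehhadh, the bifunctional hydratase and dehydrogenase of peroxisomes, was at 70.2, 94.0 and 69.6 CPM in WT and at 82.7, 152 and 78.8 CPM in ++Oxtr. Its log2 fold change of 0.42 (SE 0.28) was 0.05 without ++Oxtr replicate 8.

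The start sites of 3 further genes named above are shown for comparison with the trifunctional protein pair: the other 2 members past DESeq2 and the most abundant synthetase. Each is the 120 bases before the RefSeq start on the gene's own strand (GRCm38.p6), with GC boxes in capitals on either strand. Acadl is from chr1:66863310-66863429 (minus), Acaa1b from chr9:119157094-119157213 (minus) and Acsl1 from chr8:46470917-46471036 (plus).
Acadl: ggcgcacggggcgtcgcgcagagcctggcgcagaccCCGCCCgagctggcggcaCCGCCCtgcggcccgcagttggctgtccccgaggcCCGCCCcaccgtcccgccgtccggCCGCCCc
Acaa1b: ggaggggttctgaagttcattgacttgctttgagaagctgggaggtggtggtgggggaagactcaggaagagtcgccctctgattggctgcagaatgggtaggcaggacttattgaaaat
Acsl1: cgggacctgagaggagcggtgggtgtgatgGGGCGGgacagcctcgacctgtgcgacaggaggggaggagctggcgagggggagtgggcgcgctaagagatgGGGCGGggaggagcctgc
Acadl has 4 GC boxes in 83.3% G and C, Acsl1 has 2 in 71.7%, and Acaa1b has 0 in 51.7%. Receptors of the PPAR family, with their partner RXR, bind a direct repeat of AGGTCA with 1 base between the copies and are known regulators of this pathway. That repeat was in 0 of the 38 member promoters (300 bases each) and in 0.0481% of all genes' promoters, and with the half-site AGGNCA in 0 of 38 and in 0.451%. The motif TCAAGGTCA, of the ERR type, was in 1 of 38 (Acsl6, which had at most 4 reads in a library) and in 0.466% of all genes' promoters. At shares this low, a count of 0 in 38 promoters is likely for any genes, so it says nothing of PPAR binding. These windows also say nothing of sites farther away.

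The side route of omega oxidation was nearly silent. Cyp4a12a, Cyp4a12b, Cyp4a29 and Cyp4a30b had 0 reads in every library, and Cyp4a10, Cyp4a14 and Cyp4a31 at most 3. Cyp4a32, a fatty acid hydroxylase tested with 5 to 32 reads per library, was at 1.53, 0.347 and 0.590 CPM in WT and 1.70, 1.12 and 1.62 CPM in ++Oxtr, with overlap. Cyp2u1, another hydroxylase, had 21 to 72 reads per library, with 2.54, 2.43 and 3.34 CPM in WT and 3.83, 2.90 and 1.42 CPM in ++Oxtr, and overlapped too. The alcohol and aldehyde dehydrogenases that complete the route ranged widely in level. Adh4 and Adh7 were below the filter with at most 14 and 10 reads in a library, and Aldh1b1 was at 0.786 to 1.12 CPM. Aldh2, which clears acetaldehyde and other aldehydes, was at 1090, 1102 and 892 CPM in WT and at 1017, 1132 and 1226 CPM in ++Oxtr (log2 fold change 0.13, SE 0.13, edgeR adjusted p 0.806).

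Aldh9a1, an aldehyde dehydrogenase with a role in carnitine synthesis, was at 108, 107 and 96.5 CPM in WT and at 121, 128 and 133 CPM in ++Oxtr. It was the only one of the 7 tested dehydrogenases whose groups did not overlap (log2 fold change 0.29, SE 0.08, edgeR adjusted p 0.412). That is 14.3% of them, against 7.44% of all genes tested on the higher side. Adh1, an alcohol dehydrogenase that also oxidises retinol, reached 136 and 95.7 CPM in ++Oxtr replicates 9 and 8, against 67.5 to 81.7 CPM elsewhere. Adh5 (-0.02, SE 0.08), Aldh3a2 (-0.06, SE 0.09), Aldh7a1 (-0.16, SE 0.09) and Aldh1b1 (0.17, SE 0.40) are given by log2 fold change. Their CPM overlapped between groups, and the sign of Adh5 and Aldh3a2 depended on the setting. The cytosolic thiolases Acat2 and Acat3, which feed sterol synthesis, were highest in ++Oxtr replicate 8. Acat2 was at 100, 138 and 104 CPM in WT and 80.1, 158 and 92.8 CPM in ++Oxtr. Acat3 was at 3.30, 1.46 and 2.49 CPM in WT and 0.903, 4.48 and 1.08 CPM in ++Oxtr. They share 42.6% of the 50-base windows of Acat3, so their reads may be split, and neither separated the groups.

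Over the 39 tested members the highest library was ++Oxtr replicate 8 for 15, ++Oxtr replicate 9 for 14 and ++Oxtr replicate 7 for 4, against 4 for WT replicate 11, 2 for WT replicate 12 and 0 for WT replicate 10. The lowest library was WT replicate 12 for 14 members. Taken as the median deviation in log2 CPM from each gene's mean, the spiral was at -0.15, -0.02 and -0.15 in WT replicates 10, 11 and 12 and at 0.09, 0.11 and 0.19 in ++Oxtr replicates 7, 8 and 9. The peroxisomal step was at -0.10, -0.11 and -0.18 in WT and at 0.05, 0.18 and 0.21 in ++Oxtr. Carnitine entry showed no such order, at 0.06, 0.11 and 0.02 in WT and at -0.01, -0.08 and 0.04 in ++Oxtr. Acsl1, Acaa1b, Eci3, Adh1 and Acadl were highest in ++Oxtr replicate 9, and Ehhadh, Acsbg1 and the cytosolic thiolases in ++Oxtr replicate 8.

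**Figure D4:**
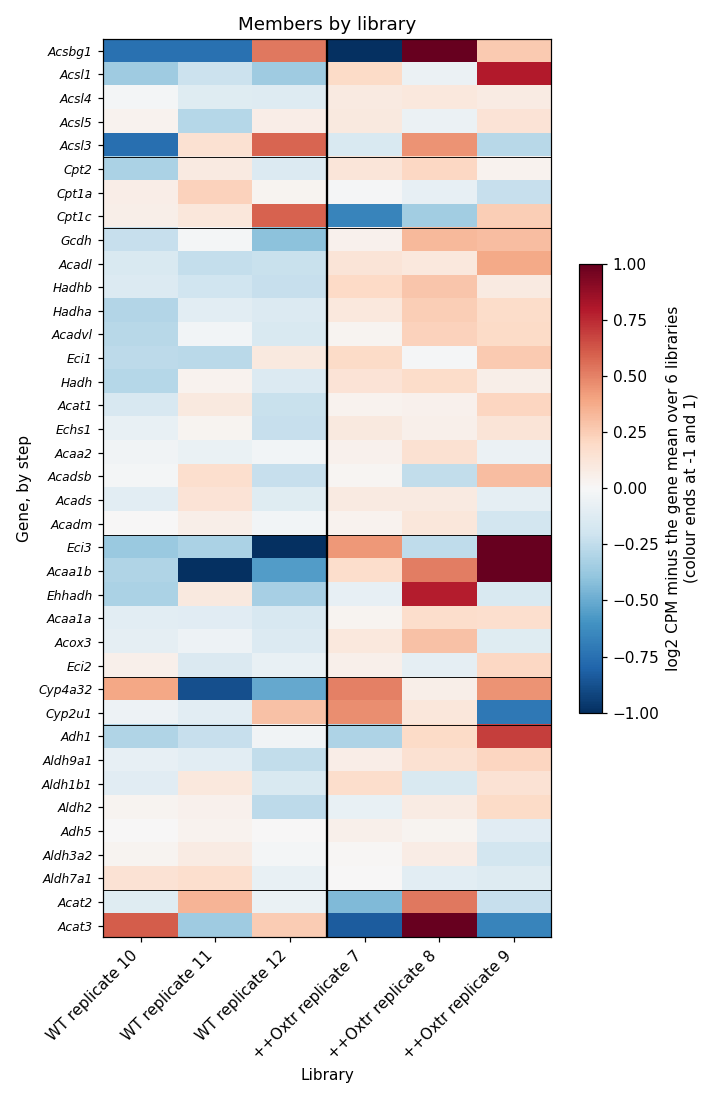
Log2 CPM of 38 of the 39 tested members in each library minus the gene's mean over 6 libraries, with the steps divided by lines. The rows of the mitochondrial spiral are mostly red in the ++Oxtr columns and blue in the WT columns, while those of Cpt1a and of Acadm are not.

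Genes that work beside these enzymes but lie outside the pathway's annotation were read from lists of partner enzymes and transporters. The lists were written with earlier results of these data known, so their shares are a description and no independent support. Of 38 tested, 33 had positive log2 fold changes, against 50.8% of all genes, and their median was 0.23. At an unadjusted edgeR p under 0.05 there were 10 higher and 0 lower, against 4.44% and 4.47% of all genes, and 12 did not overlap between groups on the higher side, against 7.44%. By edgeR 0 of them passed an adjusted p of 0.05. In the carnitine shuttle, Slc25a20, the exchanger of acylcarnitine for carnitine, had a log2 fold change of 0.23 (SE 0.09), and Crat, carnitine acetyltransferase, of 0.30 (SE 0.10). Among auxiliary enzymes, Decr1, the dienoyl-CoA reductase for unsaturated chains, stood at 0.24 (SE 0.10). Acsf2, a medium-chain acyl-CoA synthetase, was at 40.3, 43.3 and 43.1 CPM in WT and at 67.7, 84.3 and 94.6 CPM in ++Oxtr, with a DESeq2 adjusted p of 9.84e-07 and an edgeR adjusted p of 0.121. Abcd3, a transporter of the peroxisomal membrane, was at 0.24 (SE 0.10) on that scale.

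Of 10 tested regulators, 6 were on the higher side and 4 on the lower side. Without overlap, 2 lay higher and 1 lower, where 7.44% and 7.61% of all genes tested stood. Ppargc1a, a coactivator of mitochondrial genes, was at 5.31, 6.24 and 6.10 CPM in WT and at 11.1, 12.3 and 22.5 CPM in ++Oxtr (log2 fold change 1.38, SE 0.29, adjusted p 0.319 by edgeR and 0.00318 by DESeq2). Its highest library was ++Oxtr replicate 9, as for Acsl1, Acaa1b and Eci3. Ppara, the receptor that drives this pathway in liver, was at 8.20 to 11.9 CPM in WT and 11.3 to 13.3 CPM in ++Oxtr, with overlap. Rxra, the gene of the RXR partner of PPARs, lay lower without overlap, at 251, 276 and 283 CPM in WT and at 218, 217 and 226 CPM in ++Oxtr (log2 fold change -0.29, SE 0.09, edgeR adjusted p 0.412). Esrra, another regulator, lay higher without overlap, at 32.9, 38.2 and 42.8 CPM in WT and at 46.5, 49.1 and 50.4 CPM in ++Oxtr. Its log2 fold change was 0.36 (SE 0.11, edgeR adjusted p 0.448). Rxra and Esrra fall outside the rule for named genes and were chosen after their values were seen. Of 9 tested PPAR target genes outside the pathway, 6 had negative log2 fold changes. Ucp3, a mitochondrial carrier protein, was at 53.1 to 69.3 CPM in WT and 70.2 to 98.6 CPM in ++Oxtr (log2 fold change 0.58, SE 0.16, edgeR adjusted p 0.399). Plin5, a lipid droplet protein that binds mitochondria, was chosen after its values were seen. Its CPM was 21.7 to 38.1 in WT and 7.36 to 17.3 in ++Oxtr (adjusted p 0.406 by edgeR and 0.0179 by DESeq2). Pdk4, an inhibitor of pyruvate dehydrogenase, overlapped between groups at 125 to 241 and 124 to 340 CPM.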

How the data were processed

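The deposited table gives raw read counts and FPKM per gene for each library, per the file headers. FPKM equals the count divided by gene length and by the library's count total (largest relative error 5.1e-15), and depth is given with the report. Genome build mm10 is named, per the submitters' processing notes. The sources used here name no aligner, counter, annotation release or strand setting. Positions are those of GENCODE M21 on GRCm38, where all 52 members were found.

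Counts were tested with edgeR 4.0.16 in R 4.3.3 (quasi-likelihood F-test, TMM factors, robust dispersion, filterByExpr), with no covariates and Benjamini-Hochberg adjustment over 13566 genes. CPM is TMM-scaled over the tested genes. Standard errors are the log2 fold change over the square root of F. DESeq2 1.42.0 and limma 3.58.1 were alternatives, with other filters, factors and each library left out. Chi-square per degree of freedom between libraries of a group was 18.9 to 54, far above sampling noise, and none was treated as a copy. The edgeR and DESeq2 code was tried on simulated counts with fold changes set in advance, not on the pathway's steps. The groups share no replicate numbers.

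Members and lists were chosen with earlier results of these data known. Full values were given for the highest and the smallest-p member of each step, the Acsl and Cpt families, members past DESeq2, and Acadm, Ehhadh and Hadha. From each list outside the pathway the first member and that with the smallest p were named. Some genes that this rule covers are not reported here; they remain in the counts, medians and sums and are not drawn. Acsbg3 and Cyp2u1 were assigned to their steps after the table was read.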

Additional observations from a re-analysis of the deposited data

How the results depend on the processing

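No paired analysis was possible because no replicate number occurs in each group. The count of 0 members past an adjusted p of 0.05 held in every edgeR and limma setting run, while DESeq2 passed 4. That DESeq2 count was 1 to 4 as each library was left out, an alternative chosen after seeing the data. With each library left out, members at an unadjusted p under 0.05 numbered 9 to 14 higher and 0 to 2 lower, and members without overlap 14 to 18 higher and 1 to 4 lower. Groups with fewer libraries separate more readily, and the shares over all genes were not counted in these fits. These counts therefore cannot be set against the shares given for all libraries. The members' median was 0.13 with limma on log2 of FPKM plus 0.5, where the median over all genes was -0.036. With each library left out the members' median ran from 0.15 (without ++Oxtr replicate 9) to 0.23 (without WT replicate 11). Lower members at an unadjusted p numbered 1 with limma-voom and with limma on FPKM, and lower members without overlap 2 with no filter and on FPKM.

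Step medians moved most where a step has few tested genes. With no filter they were 0.41 for activation and -0.03 for each of carnitine entry, omega oxidation and the alcohol and aldehyde dehydrogenases. The dehydrogenases were at 0.05 with a mean of at least 1 CPM and at 0.06 on FPKM. Left-out libraries gave 0.01 to 0.13 for the dehydrogenases, -0.27 to -0.15 for carnitine entry, 0.18 to 0.78 for omega oxidation and -0.84 to 0.17 for the cytosolic thiolases.

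Signs changed for the members named here. With limma-voom the log2 fold change was 0.06 for Cyp2u1, 0.00019 for Adh5, -0.14 for Acsbg1 and 0.01 for Acadm. With upper quartile factors it was 0.0039 for Cyp2u1, 0.0044 for Adh5 and 0.01 for Acadm. Over the left-out libraries it ran from -0.08 to 0.06 for Acadm, -0.09 to 0.19 for Acadsb, -0.4 to 0.13 for Acat2, -1.29 to 0.2 for Acat3, -0.29 to 2.16 for Acsbg1, -0.35 to 0.29 for Acsl3, -0.06 to 0.03 for Adh5, -0.11 to 0.02 for Aldh3a2 and -0.36 to 0.28 for Cyp2u1. The cause of these changes was not tested. Members of under 1 CPM are limited by depth.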

Other observations

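Acyl-CoA thioesterases, which release free fatty acids from coenzyme A, included a few genes that stood apart in single libraries, picked after their values were seen. Acot4, a peroxisomal thioesterase, was at 20.8, 13.7 and 14.7 CPM in WT and at 18.2, 16.6 and 60.6 CPM in ++Oxtr replicates 7, 8 and 9. Acot3 was at most 0.262 CPM outside ++Oxtr replicate 9 and at 4.32 CPM in it. Acot1, the cytosolic enzyme, was at 1.71, 1.39 and 3.08 CPM in WT and at 1.33, 8.30 and 9.38 CPM in ++Oxtr. Acot13 had the smallest p of that list, with 0.32 (SE 0.12) on the log2 scale. Among 9 tested thioesterases 7 were on the higher side, and 0 passed an adjusted p of 0.05 by edgeR or DESeq2, against 1 higher and 0 lower at an unadjusted edgeR p under 0.05, where 4.44% and 4.47% of all genes stood.

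Acad10 and Acad11, acyl-CoA dehydrogenases outside the pathway's annotation, were also highest in ++Oxtr replicate 9, at 53.4 and 143 CPM, against 20.9 to 33.7 and 59.5 to 82.4 CPM in the other libraries.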
